A study of Mus musculus with 15 samples.

Results

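LSZ2 and LSZ4 are mouse lines grown from non-small cell lung cancer, and the comparison described here is of the lines with each other when both carry a hairpin that targets no mouse gene. Control arrays only were used: 3 of LSZ2 (1 with shGFP, 2 with shLacZ) and 4 of LSZ4 (2 with shGFP, 2 with shLacZ), 7 of the 15 arrays of the series. The rule took genes whose probe lies on a numbered autosome, so 20752 genes of the 21754 tested in the same fit were compared. The other 8 arrays, 4 of each line with hairpins against Siva, were not used to choose or fit these differences and serve below as separate libraries of the same lines.

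All cells were infected with virus carrying a short hairpin RNA and were cultured in DMEM with 10% serum. Cells with shGFP (in pLKO.1) were selected with puromycin for 3 days, as were the Siva hairpin cells. Cells with shLacZ (in the LL37 vector) were not. All were collected 2 days after plating, and 200 ng of total RNA was hybridised to single-colour Agilent arrays. The labels do not say whether replicates were separate cultures, so p-values measure the spread between these samples only, nor whether the numbers after shGFP mark replicates or hairpins. Each line is a single line, so a difference between them describes these lines and not classes of tumour.

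Lung adenocarcinoma cells can keep or lose the programme of the alveolar cell they come from. NKX2-1 maintains surfactant genes, and when it is lost, tumour cells often take up stomach, gut or liver genes driven by the FOXA factors and HNF4A. Lines grown from different tumours also differ in junction proteins, growth factor receptors, secreted signals and drug-metabolising enzymes, since each descends from its own founder cell.

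Levels are given as the log2 of the processed signal relative to the 75th percentile of the array, and differences as LSZ2 minus LSZ4 on that log2 scale. Across the 7 arrays, the 75th percentile ran from 428 to 1029 and the share of probes well above background from 49.0% to 58.9%. The LSZ4 shGFP arrays had the lowest 75th percentiles, 428 and 457. Siva1 lay between 5.27 and 6.49 in the control arrays and between 2.30 and 4.09 in the shSiva arrays. On both slides LSZ2 occupied columns 1 and 2 and LSZ4 columns 3 and 4, so slide column and line cannot be told apart.

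One library stood apart. On the first principal component, which held 75.1% of the variance over the 7 arrays, LSZ4 shLacZ 1 scored -42.5. The LSZ2 arrays scored -48.0 to -71.3, and the other LSZ4 arrays 51.9 to 93.3. The level of a gene also moved with the GC content of its probe. Among the 4151 genes with the highest probe GC content of 5 equal groups (median 55%), the median level less the gene's mean over the arrays was 0.47, 0.62 and 0.29 in LSZ4 shGFP 1, LSZ4 shGFP 2 and LSZ4 shLacZ 2. It was -0.41 in LSZ4 shLacZ 1 and -0.26 to -0.38 in LSZ2. In the group with the lowest GC content (median 35%), the 7 arrays lay between -0.04 and 0.08. Centring each array within groups of like probe GC content, an alternative chosen after seeing the data, called 1121 genes, 882 of them among the 954 described next.

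**Figure D1:**
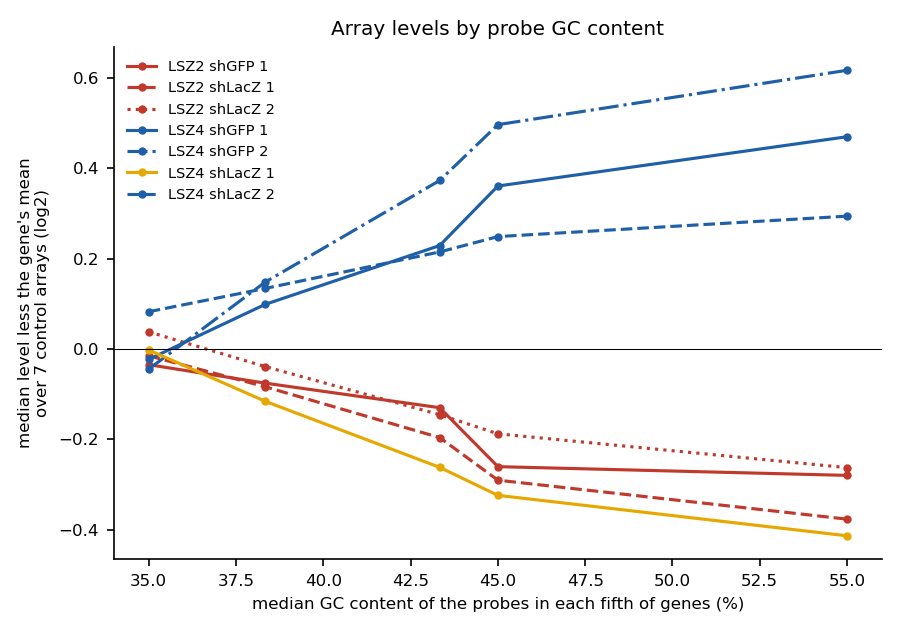
Median level of the genes in each of 5 groups by probe GC content, less each gene's mean over the 7 control arrays (log2), for each array. The lines of LSZ4 shLacZ 1 (yellow) and the 3 LSZ2 arrays (red) fall with GC content to between -0.26 and -0.41, and those of the other LSZ4 arrays (blue) rise to between 0.29 and 0.62.

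Of the 20752 autosomal genes, 954 (4.6%) differed between the lines at an adjusted p under 0.05 (limma, line and hairpin as terms, Benjamini-Hochberg over all genes tested). LSZ2 had the higher level of 526 (2.53%) and LSZ4 of 428 (2.06%). At least a 2-fold difference was found for 910 of them, 508 higher in LSZ2 and 402 higher in LSZ4. Among the 19433 genes well above background on at least 2 arrays of each line, 346 were called higher in LSZ2 and 389 in LSZ4. These calls were 3.78% of those genes. The median difference of all genes was -0.29, and list medians below are given relative to it. Counts of called list members below stand against the 4.6% of all genes. The values of the lines did not overlap for 4839 genes (23.3%), among them 950 of the 954 called (99.6%), and 7696 genes passed an unadjusted p of 0.05.

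The count depended on which arrays were used, and 1 library moved it most. Without LSZ4 shLacZ 1, 14606 genes were called, 10439 of them higher in LSZ4, and all 954 were among them. Leaving out LSZ2 shGFP gave 488 calls, LSZ4 shGFP 1 gave 582, LSZ2 shLacZ 1 gave 412 and LSZ4 shLacZ 2 gave 488. Called in every one of the 7 leave-out fits were 360 of the 954 genes, 240 higher in LSZ2 and 120 higher in LSZ4. Unless a loss is stated beside them, the called genes described in the comparisons that follow were called in each of the leave-out fits. The genes named from neighbouring runs were not looked up one by one.

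**Figure D2:**
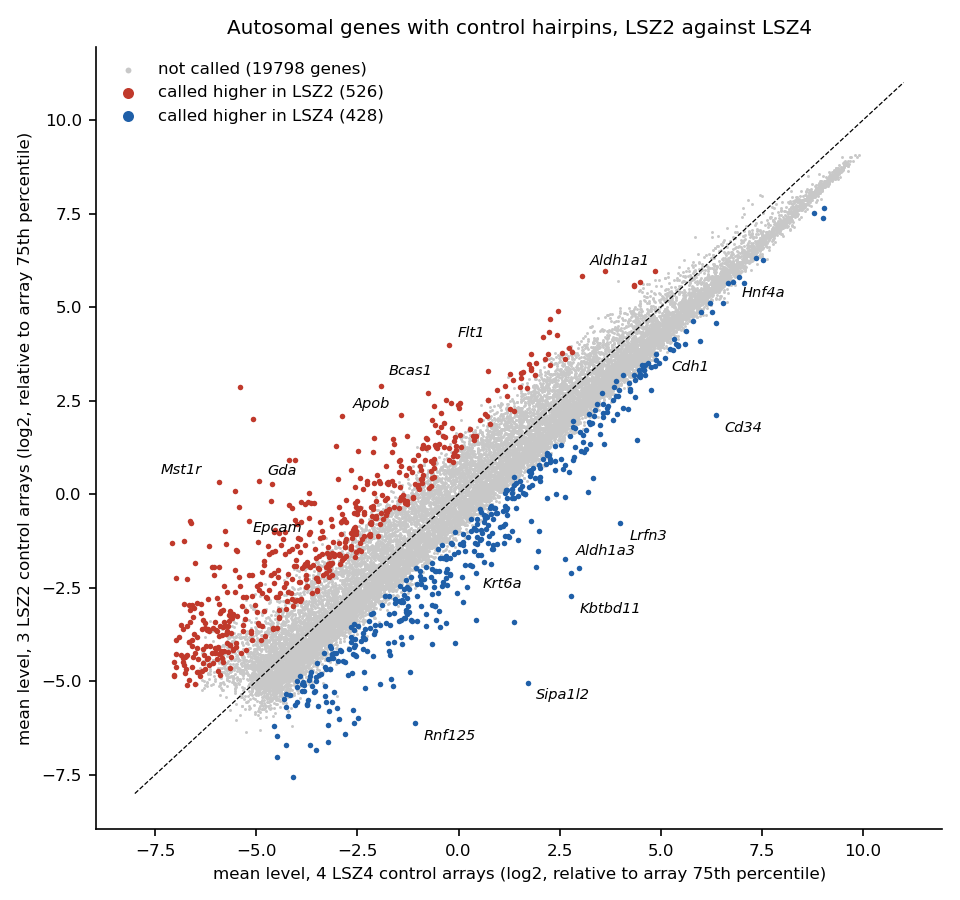
Mean level of each autosomal gene in the 4 LSZ4 control arrays (horizontal) and the 3 LSZ2 control arrays (vertical), both log2 relative to the array's 75th percentile, with the line of equality dashed. The 526 genes called higher in LSZ2 (red) lie above it and the 428 called higher in LSZ4 (blue) below it, while Hnf4a and Cdh1 lie among the genes not called.

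Some genes were measured in 1 line only. There were 267 genes well above background on all 3 LSZ2 arrays and on no LSZ4 array, and 17 on all 4 LSZ4 arrays and on no LSZ2 array. These counts are not matched, since 3 arrays were required in one direction and 4 in the other. The share of probes well above background was also 53.4% to 58.9% on LSZ2 arrays and 49.0% to 52.8% on LSZ4 arrays. All of these genes passed the filter through 1 line. Fold differences of such genes are lower bounds, set by the lowest signal that was well above background on each array of the dim line. Their calls come from fitted differences that use signal not well above background in the dim line, and do not test the bounds. The 60-base probes of 3 such genes in each direction are shown because they are what was on in 1 line and not well above background in the other. Positions are on mm9, and each sequence is written 5′ to 3′ as deposited, in lower case with nothing marked.
Gda: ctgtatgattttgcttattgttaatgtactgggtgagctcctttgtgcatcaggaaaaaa
Mst1r: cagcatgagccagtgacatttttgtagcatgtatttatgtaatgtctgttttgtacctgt
Gatm: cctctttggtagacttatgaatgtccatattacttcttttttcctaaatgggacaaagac
H2bu2: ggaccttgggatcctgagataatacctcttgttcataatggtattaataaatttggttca
Ifne: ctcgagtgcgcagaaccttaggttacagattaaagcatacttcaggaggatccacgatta
L3hypdh: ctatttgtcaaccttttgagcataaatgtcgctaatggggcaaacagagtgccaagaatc

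The Gda probe lies at chr19:21465823-21465882 on the minus strand. Gda, guanine deaminase, had levels of 0.40, 0.49 and 0.17 in LSZ2 shGFP, shLacZ 1 and shLacZ 2. In LSZ4 they were -5.20 and -4.67 with shGFP and -5.03 and -4.87 with shLacZ. No LSZ4 value came near an LSZ2 value, and the difference was at least 34.2-fold. A second Gda probe gave a fitted difference of 3.51, against 5.31.

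The Mst1r probe lies at chr9:107822566-107822625 on the plus strand. Mst1r encodes RON, the receptor tyrosine kinase for macrophage-stimulating protein. Its levels were 0.10, 0.39 and 0.45 in LSZ2 and -5.43, -5.45, -6.49 and -6.31 in LSZ4 (shGFP 1 and 2, shLacZ 1 and 2). The lines were far apart, by at least 34.1-fold. Of the 45 measured genes of receptor tyrosine kinase and Ras signalling, Mst1r was the only one called (2.22%, against 4.6% of all genes). The list's median less that of all genes was -0.05, or -0.11 to 0.06 over the alternatives.

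The Gatm probe lies at chr2:122420814-122420873 on the minus strand, and Gatm encodes the first enzyme of creatine synthesis. It had levels of -0.23, -0.39 and -0.39 in LSZ2 and of -6.08, -5.17, -5.19 and -5.30 in LSZ4. The difference was at least 21.7-fold. Other genes of this kind with large bounds were Cables1 (at least 16.7-fold), which links cyclin-dependent kinases to other kinases, and P2ry6, a receptor for UDP (at least 13.8-fold). Trpa1, an irritant-gated ion channel, was at least 11.5-fold higher, Pcdh7, a protocadherin, at least 11.2-fold, and Itih2, an inter-alpha-trypsin inhibitor heavy chain, at least 10.6-fold. A second Pcdh7 probe gave a fitted difference of 0.96, against 5.85 for the probe used.

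In the other direction the highest bound belonged to Rnf125, a ubiquitin ligase, with levels of -5.86, -5.93 and -6.56 in LSZ2 and of -1.30, -1.26, -0.62 and -1.10 in LSZ4. It was at least 19.8-fold higher in LSZ4. H2bu2 (probe at chr11:58762964-58763023, plus strand), a histone H2B gene, had -6.98, -5.51 and -5.83 in LSZ2 and -2.04, -2.14, -3.48 and -2.72 in LSZ4, at least 6.88-fold higher in LSZ4. Its fitted difference ran from -3.92 to -2.57 as single arrays were left out.

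Ifne (probe at chr4:88525626-88525685, minus strand), an interferon made by epithelia, had -6.06, -5.40 and -5.80 in LSZ2. In LSZ4 it had -2.90, -2.75, -2.29 and -2.54, at least 6.75-fold more. L3hypdh (probe at chr12:73174667-73174726, minus strand), which acts on hydroxyproline, had -6.23, -5.40 and -6.39 in LSZ2 and -3.16, -3.04, -2.03 and -3.59 in LSZ4, at least 5.35-fold more.

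Among genes measured in both lines, Homer2, a synaptic scaffold protein, had one of the largest differences. Its levels were 0.18, 0.26 and 0.37 in LSZ2 and -4.28, -4.19, -5.39 and -4.62 in LSZ4, a difference of 4.96 (SE 0.28, limma adjusted p 5.15e-05). Bcas1, a gene named for its amplification in breast cancer, had 2.82, 2.90 and 2.97 in LSZ2 and -1.64, -1.68, -2.25 and -2.12 in LSZ4 (4.87, SE 0.22, limma adjusted p 2.08e-05). The lines were clearly separated for both.

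Trf, the iron carrier transferrin, differed by 4.32 (SE 0.26) and Mtmr7, a phosphoinositide phosphatase, by 3.70 (SE 0.20). Pdgfb, a ligand of PDGF receptors, had -0.15, -0.38 and -0.11 in LSZ2 and -3.74, -3.50, -4.27 and -4.03 in LSZ4 (3.73, SE 0.22, limma adjusted p 5.80e-05). A second Pdgfb probe gave 2.01. Its receptors Pdgfra and Pdgfrb were not well above background on any control array of either line.

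Flt1, the VEGF receptor found mainly on endothelium, had 3.68, 4.07 and 4.17 in LSZ2 and -0.20, -0.10, -0.32 and -0.28 in LSZ4 (4.18, SE 0.21, limma adjusted p 4.09e-05). A second Flt1 probe, well above background on 2 LSZ2 arrays and 1 LSZ4 array, gave a difference of -0.55, with means of -5.66 and -5.15. Of the other endothelial markers, Cdh5, Tek, Tie1 and Emcn were not well above background on any control array. Pecam1 was so on every array (means -2.61 and -2.57) and Vwf on 2 LSZ2 arrays and 1 LSZ4 array. Kdr, the other main VEGF receptor, was above it on every array with 1 of its 2 probes (means 2.12 and 2.98) and was not called (-0.75, SE 0.29, limma adjusted p 0.114).

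Of the genes higher in LSZ4 with an ordinary symbol, Sipa1l2, a Rap GTPase-activating protein, had the largest difference. Its levels were -4.78, -5.24 and -5.09 in LSZ2, well above background on 1 array, and 2.00, 2.00, 1.26 and 1.62 in LSZ4 (-6.68, SE 0.20, limma adjusted p 5.69e-06). Kbtbd11, a BTB and kelch domain protein, had -3.32, -2.47 and -2.36 in LSZ2 and 3.17, 2.89, 2.44 and 2.65 in LSZ4 (-5.52, SE 0.31, limma adjusted p 5.15e-05). A second Kbtbd11 probe gave -1.44.

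Blnk, the B-cell linker adaptor, had -2.52, -1.86 and -1.93 in LSZ2 and 3.12, 3.03, 2.37 and 2.65 in LSZ4 (-4.88, SE 0.28, limma adjusted p 5.15e-05). Lbx1, a homeobox gene of muscle precursors, differed by -4.88 (SE 0.29) and Trib2, a pseudokinase, by -4.73 (SE 0.26). Lrfn3, a synaptic adhesion protein, differed by -4.69 (SE 0.31).

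Cd34, a sialomucin of blood stem cells and endothelium, had 1.81, 2.19 and 2.36 in LSZ2 and 6.71, 6.71, 5.81 and 6.20 in LSZ4 (-4.20, SE 0.28, limma adjusted p 0.000108). It was well above background on every array of both lines. Krt6a, a keratin of stressed squamous epithelium, had -1.69, -2.08 and -2.09 in LSZ2 and 1.67, 2.35, 1.34 and 2.35 in LSZ4 (-3.84, SE 0.30, limma adjusted p 0.000237). For each of these genes LSZ4 shLacZ 1 was the lowest LSZ4 array and still lay above all LSZ2 arrays. Such separation comes with the choice of called genes: the lines did not overlap for 99.6% of the 954, against 23.3% of all genes.

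**Figure D3:**
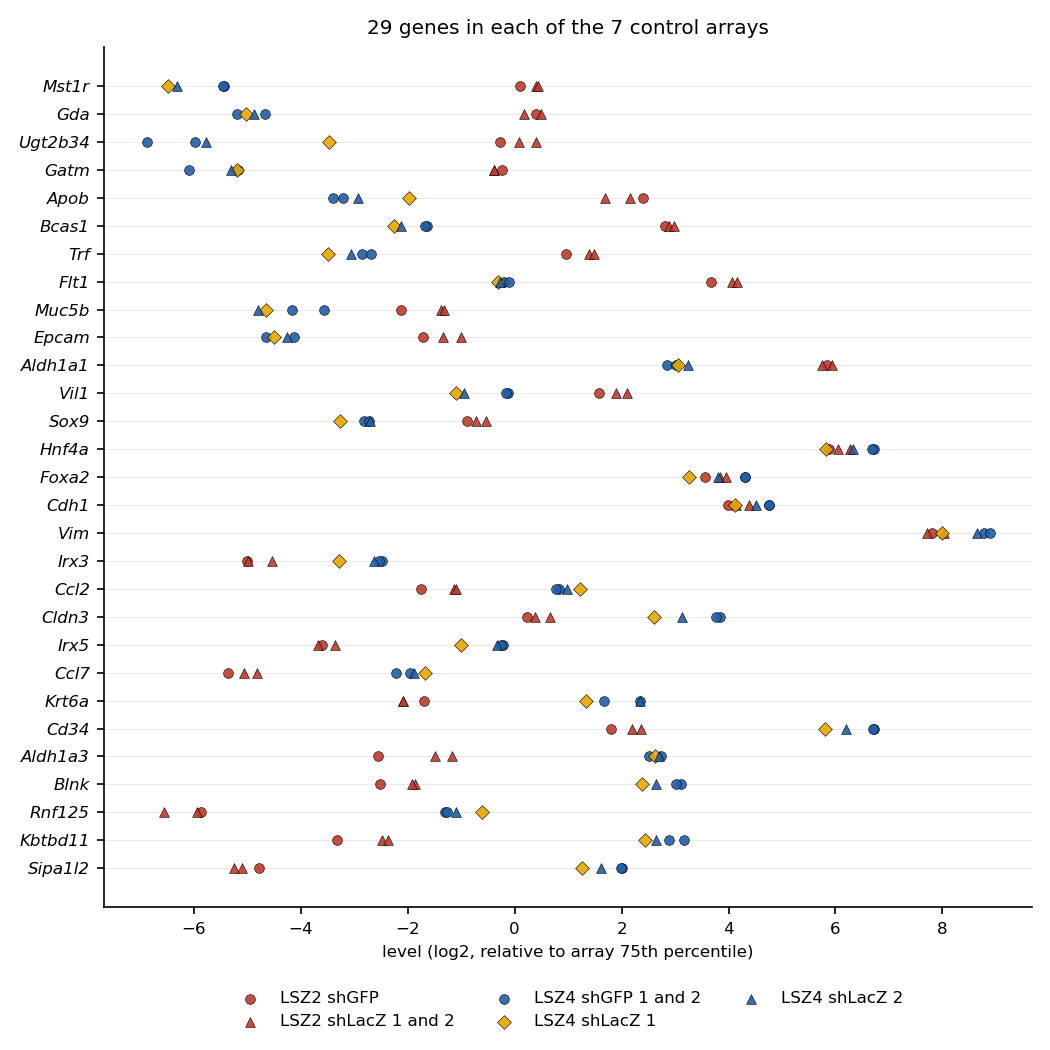
Levels of 29 genes (rows) in each of the 7 control arrays, log2 relative to the array's 75th percentile. LSZ2 arrays (red) and LSZ4 arrays (blue, with LSZ4 shLacZ 1 in yellow) lie apart for 25 genes, all chosen as called. They are mixed for Hnf4a, Foxa2, Cdh1 and Vim, which were not called.

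The identity of the lung epithelium was checked first with genes that define it. Nkx2-1, Sftpc, Sftpa1, Napsa and Slc34a2, the transcription factor and surfactant-related genes of alveolar type 2 cells, were not well above background on any control array. Sftpb and Sftpd, other surfactant proteins, each had 1 of their 2 probes above background on every array, at low levels (Sftpb means -4.19 and -2.96, Sftpd -3.80 and -3.66 in LSZ2 and LSZ4), and neither was called. Scgb1a1, the club cell secretoglobin, was above background on 2 arrays of each line. Lamp3, a lysosomal membrane protein of alveolar type 2 cells and other cells, was well above background on every array with means of 5.20 and 5.19 (difference -0.05, SE 0.24, limma adjusted p 0.887). The markers of alveolar type 2 cells were therefore mixed, with most at or near background and Lamp3 high in both lines. Of the 26 autosomal alveolar type 2 and type 1 genes on the array, 15 were measured and 1 was called, the water channel Aqp5 of type 1 cells (-1.56, SE 0.28, limma adjusted p 0.0167). Its call was lost without LSZ2 shGFP, LSZ2 shLacZ 1 or LSZ4 shLacZ 2, with a highest limma adjusted p of 0.139 and a difference of -1.22 without LSZ2 shGFP.

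Both lines had high levels of Hnf4a, the nuclear receptor of liver and gut (means 6.06 and 6.39 in LSZ2 and LSZ4), and of Foxa1 (4.90 and 4.77) and Foxa2 (3.78 and 3.92). Cdx2, the intestinal homeobox factor, had means of 3.82 and 4.80. None of these was called. Hnf4a differed by -0.28 (SE 0.26, limma adjusted p 0.417), Foxa1 by 0.11 (SE 0.20, limma adjusted p 0.656) and Cdx2 by -0.94 (SE 0.32, limma adjusted p 0.108). The sign for Hnf4a and Foxa2 turned with quantile normalization.

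Of 30 measured gut, stomach and liver genes, 7 were called higher in LSZ2, 1 was called higher in LSZ4 and 22 were not called. The list's median lay 0.30 above that of all genes. All 7 but 1 kept their call in every leave-out fit. Other gut and stomach markers did not divide the lines in this way. Lgals4 had means of 8.65 and 9.28 in LSZ2 and LSZ4, and Cdh17 of 3.42 and 2.78. Gkn1 was not well above background on any control array. Apob, the structural protein of lipoproteins, had 2.40, 2.17 and 1.69 in LSZ2 and -3.39, -3.22, -1.97 and -2.92 in LSZ4 (4.91, SE 0.35, limma adjusted p 0.000161). Vil1, the villin of the brush border, had 1.57, 1.90 and 2.09 in LSZ2 and -0.12, -0.17, -1.10 and -0.95 in LSZ4 (2.50, SE 0.29, limma adjusted p 0.00182). The lines did not overlap for either gene, as for 99.6% of called genes.

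Tff1, the trefoil peptide of gastric mucus, had the highest difference of the list, 7.24 (SE 0.36), with levels of 1.83, 2.14 and 2.06 in LSZ2 and -4.46, -4.16, -5.90 and -5.83 in LSZ4. The deposited position of its probe is on chromosome 5, whereas RefSeq lists Tff1 on chromosome 17, so what the probe measured is uncertain. The probe used was well above background on 1 of 4 LSZ4 arrays. A second Tff1 probe, well above background on all 3 LSZ2 arrays and no LSZ4 array, gave a difference of 7.645 (means 2.08 and -5.43). A mismatch of chromosome was found for 41 of 13433 autosomal genes with a RefSeq chromosome, 3 of them called. Krt20, the intestinal keratin, was high in both lines (means 6.25 and 7.54) and differed by -1.31 (SE 0.22, limma adjusted p 0.0108). Its call was lost without any of LSZ2 shGFP, LSZ2 shLacZ 1 and LSZ4 shLacZ 2, with a highest limma adjusted p of 0.0876. With quantile normalization its difference was -0.70 and not called (limma adjusted p 0.0515).

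Airway and neuroendocrine markers were measured for 13 of 25 genes, and 5 were higher in LSZ2 and none in LSZ4. The list had a median difference 0.21 higher than all genes, which ran from 0.06 to 0.52 over the alternatives. Muc5b, a gel-forming airway mucin, had -2.13, -1.37 and -1.32 in LSZ2 and -3.56, -4.17, -4.64 and -4.80 in LSZ4 (2.72, SE 0.35, limma adjusted p 0.00306). Nrcam, a neural adhesion molecule, had -0.17, -0.26 and -0.14 in LSZ2 and -5.51, -4.57, -4.26 and -4.22 in LSZ4 (4.37, SE 0.29, limma adjusted p 0.000108), where 2 of 4 arrays were well above background. The defining neuroendocrine markers Calca and Insm1 were not well above background on any control array, and Chga was so on 2 LSZ2 arrays only.

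Transcription factors of lung epithelium were unevenly divided: of 21 measured, 1 was higher in LSZ2 and 4 in LSZ4. Sox9, a factor of distal lung progenitors, had -0.89, -0.72 and -0.54 in LSZ2 and -2.81, -2.73, -3.27 and -2.71 in LSZ4 (2.17, SE 0.23, limma adjusted p 0.00117). The neighbouring Iroquois genes were higher in LSZ4. Irx5 had -3.59, -3.67 and -3.35 in LSZ2 and -0.21, -0.25, -1.01 and -0.32 in LSZ4 (-3.05, SE 0.25, limma adjusted p 0.000304). Irx3 differed by -2.08 (SE 0.27) and Ehf, an ETS factor of epithelia, by -2.04 (SE 0.23).

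Sox2, the factor of proximal airway, differed by -1.11 (SE 0.23, limma adjusted p 0.0309). It kept the call only without LSZ4 shLacZ 1, and its highest limma adjusted p over the other leave-out fits was 0.210.

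Epithelial junction and identity genes moved in both directions, 5 of 43 higher in LSZ2 and 3 in LSZ4, with a median 0.07 above that of all genes (0.01 to 0.25 over the alternatives). Epcam, the pan-epithelial adhesion molecule, had -1.72, -1.33 and -1.00 in LSZ2 and -4.12, -4.65, -4.50 and -4.25 in LSZ4 (2.99, SE 0.24, limma adjusted p 0.000304). Cldn3, a claudin of tight junctions, went the other way, with 0.23, 0.38 and 0.66 in LSZ2 and 3.83, 3.76, 2.61 and 3.13 in LSZ4 (-2.84, SE 0.30, limma adjusted p 0.00106). Spint1, an inhibitor of membrane serine proteases, differed by -2.65 (SE 0.31), and Pkp1, a desmosomal plakophilin, by -2.09 (SE 0.26).

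Cdh1, the epithelial cadherin, had means of 4.17 and 4.53, and Vim, the mesenchymal filament protein, means of 7.85 and 8.58, and neither was called. Their differences were -0.33 (SE 0.24, limma adjusted p 0.306) and -0.67 (SE 0.25, limma adjusted p 0.113). Zeb1, a repressor of Cdh1, differed by 0.39 (SE 0.35, limma adjusted p 0.400). Of 24 measured genes of mesenchymal transition none was higher in LSZ2 and 3 were higher in LSZ4. Of these Foxc1, a forkhead factor, kept its call in each leave-out fit (-2.54, SE 0.21, limma adjusted p 0.000304). Of the other mesenchymal markers, Twist1, Pdgfra and Pdgfrb were not well above background on any control array. Col1a1 was so on 1 LSZ2 array only and Col3a1 on 1 array of each line. Cdh2 was well above background on every control array with 1 of its 2 probes, at low levels (means -4.32 and -4.13).

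The largest share of called genes belonged to cytochrome P450, aldehyde dehydrogenase and conjugating enzymes, with 10 of 33 measured members higher in LSZ2 and 3 in LSZ4. The list had a median difference 0.88 higher than all genes, which was 0.66 with quantile normalization and 0.34 with normexp background correction. In the separate shSiva arrays of the same lines it was 0.09. Ugt2b34, a glucuronosyltransferase, had -0.28, 0.40 and 0.09 in LSZ2 and -5.98, -6.88, -3.47 and -5.78 in LSZ4 (5.38, SE 0.55, limma adjusted p 0.000893). LSZ4 shLacZ 1 was its highest LSZ4 value, still well below LSZ2, and 1 of the 4 LSZ4 arrays was well above background. Sult1c2, a sulfotransferase, had -1.98, -0.91 and -0.93 in LSZ2, was not well above background in LSZ4, and was at least 10.6-fold higher in LSZ2. Cyp2c66 had 1.67, 1.74 and 1.55 in LSZ2 and -0.59, -0.71, 0.17 and -0.91 in LSZ4 (2.14, SE 0.28, limma adjusted p 0.00348).

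The enzymes that make retinoic acid went opposite ways. Aldh1a1 was high in both lines and higher in LSZ2, with 5.83, 5.75 and 5.93 against 2.85, 3.02, 3.06 and 3.24 in LSZ4 (2.77, SE 0.20, limma adjusted p 0.000155). Aldh1a3 had -2.55, -1.49 and -1.17 in LSZ2 and 2.73, 2.52, 2.62 and 2.71 in LSZ4 (-4.47, SE 0.28, limma adjusted p 9.21e-05). LSZ4 shLacZ 1 lay within the range of the other LSZ4 arrays for both genes. Cyp2j6, an arachidonic acid epoxygenase, differed by -2.02 and was higher in LSZ4.

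Glutathione transferases and NRF2 targets had 2 of 36 members higher in LSZ2 and 5 in LSZ4, with a median -0.35 from that of all genes. Gstk1, a mitochondrial and peroxisomal transferase, was the only one to keep its call in each leave-out fit (-2.24, SE 0.25, limma adjusted p 0.00146). The housekeeping list had a median of -0.39 on the same scale with 0 of 40 called. With quantile normalization both medians changed sign, to 0.02 for the glutathione and NRF2 list and 0.07 for the housekeeping list.

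Secreted signals differed too. Of 29 measured chemokines, cytokines and their receptors, 6 were higher in LSZ2 and 2 in LSZ4. The monocyte attractants Ccl2 and Ccl7 were higher in LSZ4. Ccl2 had -1.75, -1.13 and -1.10 in LSZ2 and 0.82, 0.78, 1.22 and 0.98 in LSZ4 (-2.35, SE 0.20, limma adjusted p 0.000378), and Ccl7 differed by -3.20 (SE 0.20). Cxcl5, a neutrophil attractant, had -2.95, -1.39 and -1.47 in LSZ2 and -6.52, -6.56, -4.33 and -6.76 in LSZ4 (3.90, SE 0.50, limma adjusted p 0.00283), with 1 LSZ4 array well above background. Ccl9, a monocyte attractant, was at least 2.81-fold higher in LSZ2, but with normexp background correction its difference was 0.63 and not called (limma adjusted p 0.0796).

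Interferon-stimulated genes had 6 of 29 members higher in LSZ2 and 1 in LSZ4, and a median 0.51 above that of all genes, which was 0.27 after GC centring. Ifih1, the MDA5 sensor of double-stranded RNA, was well above background on every LSZ2 array and no LSZ4 array, at least 3.57-fold higher. It was the only one of the 7 to keep its call in each leave-out fit, and with normexp background correction it was not called (0.70, limma adjusted p 0.0589). None of the 26 measured MHC class I and antigen processing genes was called.

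In the TGF-beta and BMP pathway 1 of 31 measured genes was higher in LSZ2 and 3 in LSZ4 (12.9% called, against 4.6% of all genes). Bmp7, a BMP ligand, had -1.65, -1.64 and -1.28 in LSZ2 and -4.03, -4.50, -5.41 and -4.24 in LSZ4 (3.06, SE 0.33, limma adjusted p 0.00124). Fst, follistatin, which binds activins and BMPs, had 1.34, 1.22 and 1.44 in LSZ2 and 3.34, 3.47, 2.84 and 3.35 in LSZ4 (-1.88, SE 0.22, limma adjusted p 0.00183). Bmp2, another BMP ligand, was higher in LSZ4 (-1.31, SE 0.22, limma adjusted p 0.0115), a call lost in 3 of the 7 leave-out fits. Smad9, a BMP signal carrier, was at least 2.17-fold higher in LSZ4, where 3 of 4 arrays were well above background.

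Of 28 Wnt and Notch genes, 2 were higher in LSZ2 and 1 in LSZ4. Wnt7a, an epithelial Wnt ligand, had 0.81, 0.62 and 0.82 in LSZ2 and -1.64, -1.12, -2.00 and -0.93 in LSZ4 (2.19, SE 0.29, limma adjusted p 0.00362), and the receptor Fzd4 differed by 1.72 (SE 0.21). The oncofetal RNA-binding proteins Igf2bp1 and Igf2bp2 were both higher in LSZ2, by 2.04 (SE 0.26) and 1.53 (SE 0.20), and were the only 2 of 18 imprinted and oncofetal genes called. Hmga2, a chromatin protein of embryonic tissue, differed by 0.94 (SE 0.27, limma adjusted p 0.0838), and was called with normexp background correction (limma adjusted p 0.0482).

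Collagen, laminin and integrin genes had 2 of 30 members higher in LSZ2 and 3 in LSZ4. Itga1, a collagen-binding integrin chain, had -0.97, -0.82 and -1.23 in LSZ2 and -4.20, -4.52, -2.43 and -3.51 in LSZ4 (2.52, SE 0.38, limma adjusted p 0.00670). As single arrays were left out its difference ran from 1.94 to 2.94, with a highest adjusted p of 0.0495. Itgb6, the epithelial integrin that activates TGF-beta, was at least 2.05-fold higher in LSZ2. With normexp background correction its difference was 0.37 and not called (limma adjusted p 0.235).

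None of 38 DNA replication genes, 34 mitosis genes or 27 tumour suppressor and cell cycle inhibitor genes was called, against 4.6% of all genes. Nor was any of 38 genes of cholesterol and fatty acid synthesis. At that share, lists of this size would hold few calls, if any. Bright genes were also called less often. Of 5 equal groups by level, the brightest (4151 genes, median 5.25) had 7 genes called higher in LSZ2 and 45 in LSZ4. The dimmest (4151 genes, median -4.30) had 187 and 79. The median difference also moved with level, from -0.13 in the dimmest group to -0.62 in the brightest. With quantile normalization these medians were -0.13 and -0.05. Differences of single genes are printed without allowance for this shift. The replication and mitosis lists had median levels of 4.3 and 4.6. Whether their lack of calls reflects more than level was not tested. Cdkn2a and Cdkn2b were not well above background on any control array of either line, while Mtap, their neighbour, was high in both (means 3.87 and 3.66, difference 0.17, SE 0.19, limma adjusted p 0.509). Trp53 had means of 0.82 and 1.45 (-0.57, SE 0.29, limma adjusted p 0.177) and Myc of 2.86 and 3.67 (-0.78, SE 0.23, limma adjusted p 0.0903).

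Of 36 p53 pathway genes 3 were higher in LSZ2 and none in LSZ4 (8.33% called, against 4.6% of all genes). Sulf2, a heparan sulfatase, kept its call in each leave-out fit (1.93, SE 0.22, limma adjusted p 0.00155), and with normexp background correction it lost it. Siva1, a p53 target, had means of 5.38 and 6.06 and was not called (-0.60, SE 0.29, limma adjusted p 0.158). Hypoxia and glycolysis genes had 1 of 33 called (3.03%), below the 4.6% of all genes, and Hox genes 1 of 9. Neither call held in every leave-out fit.

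Markers of blood, immune and endothelial cells were measured for 14 of 30 genes, with 2 higher in LSZ2 and 1 in LSZ4. Adgre1, a macrophage marker, was above background on 2 LSZ2 arrays and 1 LSZ4 array. S100a8 and Hba-a1 were the called ones besides Flt1, and neither kept its call in every leave-out fit. S100a8 was well above background on every LSZ2 array and no LSZ4 array, its bound was under 1, and its fitted difference changed sign with normexp background correction. The median level of the 14 genes, each less its mean over the arrays and less the same median of all genes, ran from -0.12 to -0.03 over the LSZ2 arrays and from -0.14 to 0.19 over the LSZ4 arrays. Its part in the line differences was not tested. Of the 30 markers on the array, 10 were well above background on every control array, 13 on none and 7 on some. Those on every array included, by the brightest probe of each, Itgam (means 3.38 and 3.38 in LSZ2 and LSZ4), Cd14 (2.16 and 2.77), Cd4 (1.18 and 1.71), Csf1r (0.24 and 1.11), Cd3e (-0.34 and 0.42) and Cd79a (-4.08 and -3.59), while Cd3g, Cd8a, Cd68 and Lyz2 were on none. Other probes of the same genes were dimmer. They had means of -3.58 and -3.29 and of -3.66 and -3.63 for Itgam, and of -4.93 and -4.28 for Cd4. For Csf1r they had -4.73 and -3.98 and -1.68 and -1.53, and for Cd79a -4.76 and -4.77.

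**Figure D4:**
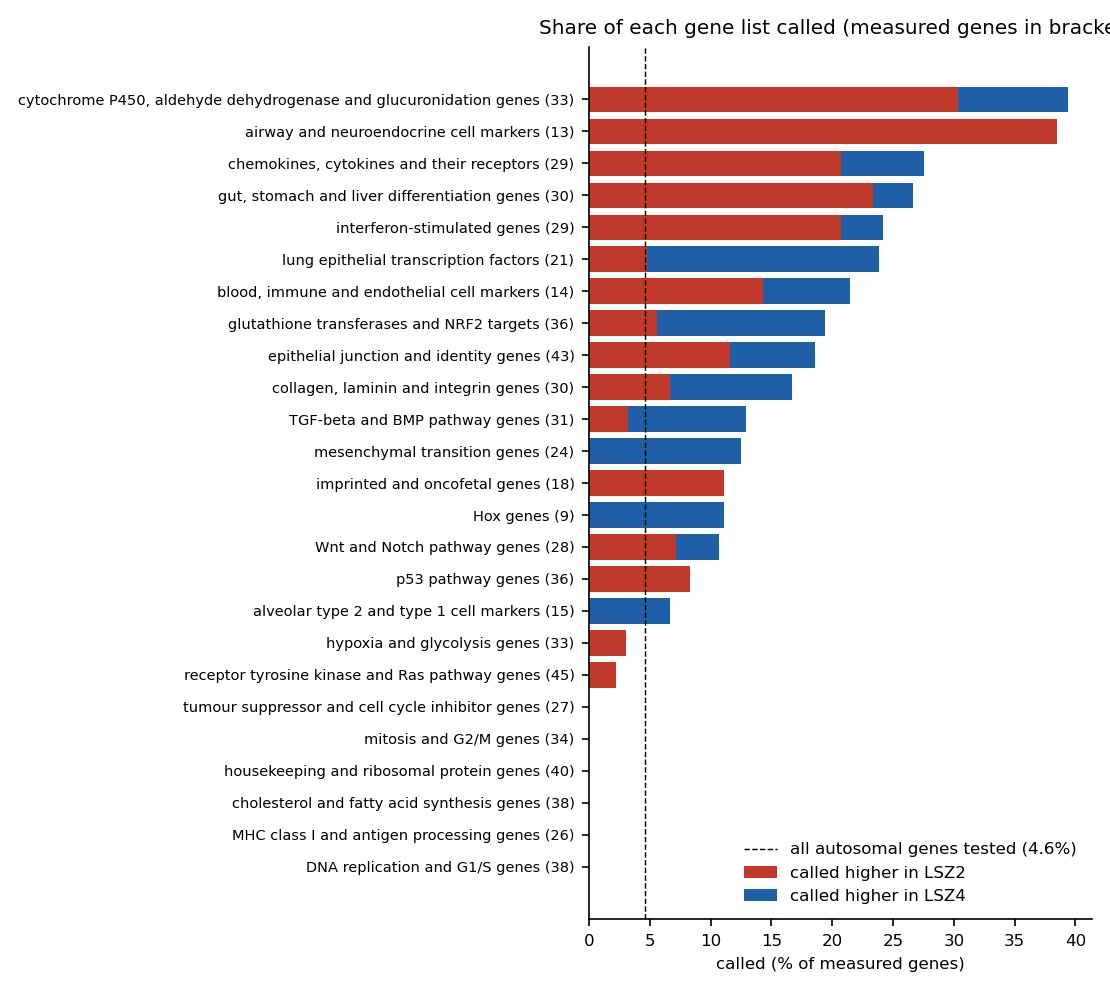
Percent of the measured genes of each list that were called higher in LSZ2 (red) or in LSZ4 (blue), with the number of measured genes in brackets and the 4.6% of all autosomal genes dashed. The cytochrome P450, aldehyde dehydrogenase and glucuronidation genes have the largest share, and 6 lists have no gene called.

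The same lines with Siva hairpins gave separate arrays on another slide. Their line difference came from a fit over all 15 arrays, whose variance estimate also draws on the control arrays. For the shSiva arrays 886 genes (4.27%) were called, 448 (2.16%) higher in LSZ2 and 438 (2.11%) higher in LSZ4. With all 15 arrays in the fit the control line difference called 3806 genes. The 886 calls are therefore not a like count to the 954 of the control arrays alone. Of the 954 genes called with control hairpins, 926 had the same sign, 554 were called in the same direction and none in the opposite one. Among all genes 86.2% had the same sign, and 872 were called in the direction of their control difference. The difference was smaller in size for 837 of the 954 (87.7%), which had been selected in the control arrays, and for 81.9% of all genes. The line differences of Homer2 (4.86, SE 0.40) and Trpa1 (6.30, SE 0.30) in the shSiva arrays were close in size to those with control hairpins.

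Among the largest differences, Sipa1l2 was -5.04, Kbtbd11 -4.99, Mst1r 4.53, Gatm 4.65, Gda 3.89, Bcas1 3.15 and Epcam 2.60 in the shSiva arrays, as fitted differences. All of these were called there. Muc5b, at 0.44 (limma adjusted p 0.391), and Cxcl5, at 1.07 (limma adjusted p 0.277), were not. Fit over all 15 arrays, the line difference itself differed between the arms for 22 genes (0.106%), 20 of them larger with control hairpins. In that test 903 genes passed an unadjusted p of 0.05. Every control array was on 1 slide and every shSiva array on the other, so arm and slide cannot be told apart.

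Flt1 had the smallest adjusted p. In LSZ2, Flt1 had levels of 4.74, 5.03, 3.76 and 3.57 with shSiva1 (2 arrays) and shSiva2 (2 arrays), against 3.68 to 4.17 in the control arrays. In LSZ4, Flt1 had levels of 2.87, 3.12, 1.66 and 1.44, above all 4 control arrays, so the line difference was 2.18 smaller (SE 0.23, limma adjusted p 0.00699). Sox9 was likewise 1.65 apart (SE 0.26, limma adjusted p 0.0439), with a line difference of 0.52 in the shSiva arrays. Thsd4, a thrombospondin-repeat protein of the matrix, was 2.48 apart (SE 0.35, limma adjusted p 0.0377).

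Prickle1, a planar polarity protein, had the reverse pattern. Its LSZ2 minus LSZ4 difference was 2.64 with control hairpins and 4.83 with Siva hairpins (-2.18, SE 0.34, limma adjusted p 0.0439). Cck, the gut hormone cholecystokinin, was at least 2.18-fold higher in LSZ2 with control hairpins, a call lost with normexp background correction, and differed by -0.50 with Siva hairpins. Levels of Cck there differed by hairpin in both lines: -1.71, -1.40, -0.31 and -0.59 with shSiva1 and -5.52, -5.72, -5.78 and -5.68 with shSiva2. These 22 calls depended on single arrays and on the model: leaving out 1 of the 15 arrays gave 0 to 40 calls, and a fit without hairpin terms gave 0.

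**Figure D5:**
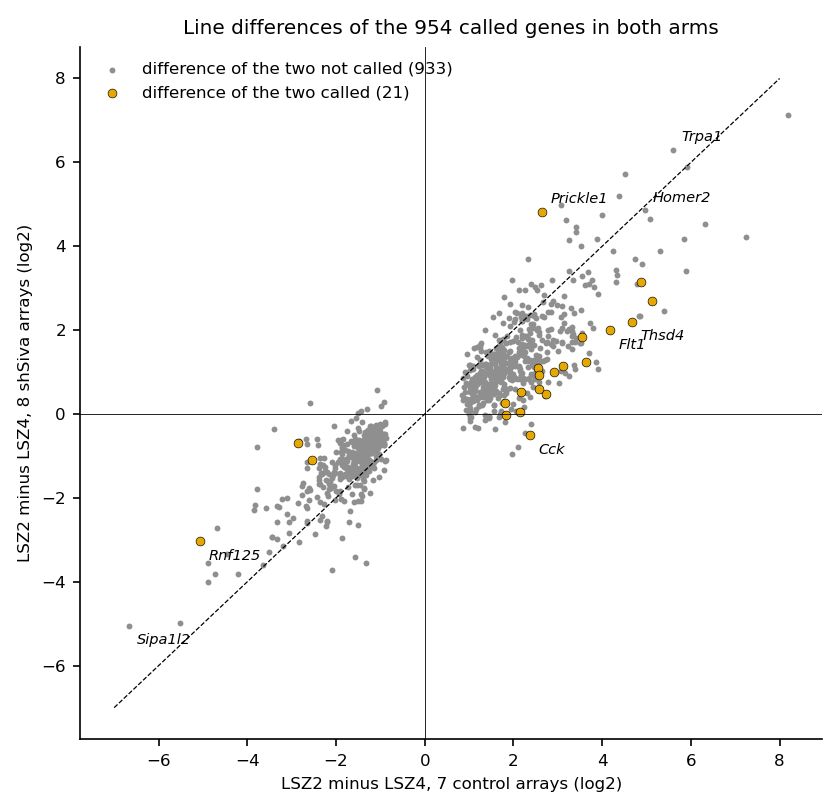
Line difference (LSZ2 minus LSZ4, log2) of the 954 called genes in the 7 control arrays (horizontal) and in the 8 shSiva arrays (vertical), with the line of equality dashed. Most points share their sign in both arms, with 837 nearer to 0 in the shSiva arrays, and 21 genes (yellow) are among the 22 whose line difference was called different between the arms.

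Within the control arrays the line difference could also be compared between hairpins. With shGFP (1 against 2 arrays) and shLacZ (2 against 2) no gene had line differences called unequal (limma, 20744 genes, lowest adjusted p 0.225), and 1600 passed an unadjusted p of 0.05. The lone LSZ2 shGFP array is assumed there to vary like the others. The lack of calls was not stable. Some genes were called in each fit that left out 1 of the other control arrays, by far the most without LSZ4 shLacZ 2. A fit of the shLacZ arrays alone called 595 genes, 425 higher in LSZ2 and 170 in LSZ4, with 498 of them among the 954.

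Some called genes formed runs along a chromosome, with neighbours called in the same direction and no more than 500 kb apart. There were 109 such runs holding 256 of the 739 called genes with an ordinary symbol. A gene higher in LSZ2 lay within 500 kb of another such gene for 31.6% of 405, against 25.9% of genes not called. For genes higher in LSZ4 the shares were 42.2% of 334 and 26.1%, and neither difference was tested. The members below were picked from these runs after their values were seen. On chromosome 19, Cyp2c55, Cyp2c65, Cyp2c66 and Cyp2c29 were higher in LSZ2, with fitted differences of 1.57 to 2.32. On chromosome 3, Clca3a1, Clca3a2 and Clca1, secreted regulators of chloride channels in mucous epithelia, were higher in LSZ2 by 4.32, 3.77 and 3.32. On chromosome 13, Akr1c13, Akr1c19 and Akr1c12, aldo-keto reductases, were higher in LSZ2.

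Runs higher in LSZ4 included Krt84, Krt6b and Krt6a on chromosome 15, Cyp2j13, Cyp2j8 and Cyp2j6 on chromosome 4, and Ccl2, Ccl7 and Ccl8 on chromosome 11. These families hold near-identical copies, and whether their probes bind more than 1 copy was not tested. The longest run had 7 genes on chromosome 15 from Foxred2 to Npcd, of unrelated families, all higher in LSZ4. It includes Kctd17, with a difference of -2.31 (SE 0.28, limma adjusted p 0.00232).

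By chromosome, the median difference less that of all genes was lowest on chromosomes 15 (-0.19, 866 genes) and 8 (-0.15, 1171 genes) and highest on 18 (0.22, 561 genes) and 12 (0.19, 816 genes). The array medians of the lines did not overlap for 9 of 19 chromosomes, among them 15, 8 and 12 but not 18. On chromosome 15 they were -0.10, -0.11 and -0.10 in LSZ2 and 0.11, 0.15, 0.00 and 0.08 in LSZ4 (exact permutation test, two-sided, p = 0.0571). The smallest p this design allows is 0.0286, and no chromosome passed after adjustment over the 19 (lowest 0.136).

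In the shSiva arrays 15 of 19 chromosomes had the same sign, and the lines did not overlap for 10. On chromosomes 15, 8 and 12 the medians there were -0.16, -0.12 and 0.09. Centring within groups of like probe GC content left -0.15 on chromosome 15, -0.13 on 8, 0.14 on 18 and 0.14 on 12. Over 252 windows of 10 Mb the medians ran from -0.35 to 1.11. The highest window, at chr2:40000001-50000000, held 18 genes, among them Kif5c, a neuronal kinesin (2.32, SE 0.35, limma adjusted p 0.00670), whose call was lost without LSZ2 shGFP (1.92, limma adjusted p 0.0639).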

How the data were processed

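Probe intensities were deposited as scanner output of single-colour Agilent arrays, with background subtracted by Feature Extraction 10.7.3.1 on mm9, per the file headers. The authors' deposited value table is on a log2 scale and matched the processed signal less each array's 75th percentile, with each probe centred on its median over the 15 arrays. Here, log2 of the processed signal less the array's 75th percentile was used for 55681 probes, of which 52698 lie on numbered autosomes. Names came from RefSeq through the accession for 26679 probes and from the file for 29002. Genes well above background on at least 3 control arrays were tested, each by the probe with the highest mean. Fits used limma 3.58.1 in R 4.3.3 with line and hairpin as terms, eBayes and Benjamini-Hochberg adjustment at 0.05, and were tested on simulated data. A second fit over 15 arrays gave the line differences in the shSiva arrays and tested whether line differences differed between arms. The members and lists were chosen with earlier results of these data known. Genes were named by rule: the 8 largest differences or bounds in each direction, up to 3 called members of a list in each direction, the 6 smallest p in each direction, the 4 largest called interactions, genes of the 3 highest and lowest windows, and a set of tumour and lineage genes. Genes not autosomal were left out. Alternatives included scaling, background correction, filters, blocks and leaving out each array. Some genes are not reported here.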

Additional observations from a re-analysis of the deposited data

Results flagged for a closer look

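Among 123 named genes, 11 had 1 of the 4 LSZ4 control arrays far from the other three, of which 10 were at LSZ4 shLacZ 1. Chance alone marks about 1 gene in 20, and these genes share their arrays. LSZ4 shLacZ 1 was the lowest for Abhd6 at 2.31 (others 2.88 to 2.95), Igf2bp1 at -1.72 (others -0.97 to -0.82) and Irx5 at -1.01 (others -0.32 to -0.21). It was also the lowest for Pdhb at 4.14 (others 4.63 to 4.74), Sox2 at 0.95 (others 1.48 to 1.57) and Trp53 at 0.63 (others 1.65 to 1.84). It was the highest for Cxcl5 at -4.33 (others -6.76 to -6.52), Fas at -4.57 (others -6.79 to -6.69), Samd9l at -0.49 (others -1.87 to -1.67) and Trp53inp1 at -0.41 (others -2.71 to -2.35). LSZ4 shGFP 1 was the lowest for Gatm at -6.08 (others -5.30 to -5.17). Of these called genes, Abhd6, Pdhb, Samd9l, Fas and Trp53inp1 lost their call in 5, 6, 5, 3 and 3 of the 7 leave-out fits.

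The difference between lines was itself called different between the control and shSiva arrays for 10 named genes (limma, control less shSiva). It was larger with control hairpins for Cck (2.87), Thsd4 (2.48), Ptprf (2.40), Armc3 (2.24), Flt1 (2.18), Bcas1 (1.72) and Sox9 (1.65). Genes higher in LSZ4 with a larger difference there were Rnf125 (-2.04) and Foxc1 (-1.45). Prickle1 (-2.18) had the larger difference with Siva hairpins.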

How the results depend on the processing

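The count of 954 genes became 610 with no filter on background and 546 with line and hairpin group as a random block. It became 595 with shLacZ arrays alone or with both LSZ4 shGFP arrays left out, the second chosen after seeing the data. Both give equal values, because the hairpin term fits the remaining shGFP array exactly. The count was 1896 with 1 mean for each group and 3806 in a fit of all 15 arrays. The count past 2-fold, 910, became 546, 595, 1896 and 1482 under the last 4 kinds of fit. Leaving out 1 array gave 412 to 14606 genes and, past 2-fold, 412 to 5187. Normexp background correction called 1110 genes, 398 higher in LSZ2 and 712 in LSZ4, median scaling 603 and 735, no hairpin term 580 and 582, and detection on all 7 arrays 365 and 525, against 526 and 428. Replicate numbers did not pair the samples by the criterion used (correlations 0.42, 0.03 and 0.26), and a fit with the replicate block gave 1709 genes. The 22 genes whose line difference differed between arms became 40 with quantile normalization, 45 with the replicate block, 0 with no hairpin term and 0 to 40 with 1 array left out, and the 0 between control hairpins became 2 to 12197.

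Normexp moved the chromosome medians to -0.13 on 15 and -0.10 on 8, and GC centring moved 12 to 0.14. Signs turned for Foxa2 (0.31), Hnf4a (0.30) and Cdh1 (0.10) with quantile normalization and for S100a8 (-0.076) with normexp. They also turned with shLacZ arrays alone for Foxa2 (0.36), Hnf4a (0.077) and Zeb1 (-0.085). The values were the same with both LSZ4 shGFP arrays left out and without LSZ2 shGFP. In each of these fits only the shLacZ arrays determine the line difference. Over fits without 1 array, Foxa2 ran from -0.33 to 0.36, Hnf4a from -0.50 to 0.077, Zeb1 from -0.085 to 0.78 and Scgb1a1 from -0.37 to 0.096, and Scgb1a1 was 0.044 with GC centring. Of 106 called named genes, 67 kept direction and call under every alternative, and 32 lost the call without at least 1 array. The cause of these changes was not tested. With 3 and 4 arrays, small differences and dim genes have limited precision.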
